A study of Rattus norvegicus with 12 samples.

Results

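Homeostatic microglia markers are genes that resting microglia, the resident macrophages of the brain, are known to express. The 8 genes listed were Cx3cr1, P2ry12, P2ry13, Csf1r, Tmem119, Aif1, Trem2 and Gpr34. A probe set, the group of short oligonucleotides that reports 1 transcript on an Affymetrix array, was taken when the platform annotation gave it exactly 1 gene symbol and that symbol was on the list. This found 7 of the 8 genes among 14217 genes with such probe sets, and 10 probe sets among the 31042 tested. Aif1, P2ry12 and Trem2 had 2 probe sets each, Tmem119, Cx3cr1, Csf1r and Gpr34 had 1 each, and P2ry13 was not analysed here.

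RNA came from hippocampal slice cultures of Wistar rats, cut at postnatal day 7 and kept for 26 days in vitro. One group received 7B12, a mouse monoclonal antibody raised against residues 763 to 820 of rat Nogo-A, and another received 11C7, raised against residues 623 to 640. The controls were slices given purified IgG against a plant protein (IgG) and slices given no antibody (NT). Antibody stood in the medium at 3 µg/ml for the last 5 days, from day 21, and the medium was renewed every 2 days. Each group had 3 arrays, numbered 1 to 3, each from RNA of 24 pooled cultures, and per the design text the 3 came from separate cultures of different animals. The cultures are an explant with no blood supply, and each array averages all the cells of the pool.

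The deposited values are ratios of each probe set to a reference of its own, so they carry no level. The microglial label could therefore not be checked against marker levels, and no gene's value can be set against another gene's as an amount. Each value below is the log2 ratio with the array's median subtracted, so 0 is the middle of that array, and 1 unit is a doubling. Precision is limited by having 3 arrays in a group. One array, 11C7 1, stood apart from the other 11C7 arrays and lay with the 7B12 arrays in several differences between members. Differences of 11C7 slices from controls, of 7B12 from 11C7 slices and the order of the groups are therefore also described without it.

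Microglia survive through signalling by Csf1r, the receptor for the cytokines Csf1 and Il34. Cx3cr1 receives fractalkine (Cx3cl1), which neurons present, and P2ry12 senses extracellular nucleotides released at sites of damage and steers microglial processes towards them. Trem2 binds lipids and lipoproteins, including Apoe, and signals through the adaptor Tyrobp. In mouse brain, transforming growth factor beta and the transcription factor Sall1 hold microglia in the resting state, and P2ry12 and Tmem119 typically go down when the cells become reactive.

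Tmem119, a membrane protein used to tell microglia from other macrophages, had the widest span of group means among the members. Its values were 0.76, 0.21 and 1.26 in 7B12 arrays 1, 2 and 3, 0.34, -0.60 and -0.052 in 11C7 arrays, -0.50, -0.64 and 0.39 in IgG arrays and -0.36, -1.04 and 0.19 in NT arrays. Arrays 7B12 1 and 7B12 3 lay above the 9 arrays of the other groups, while 7B12 2 lay below 11C7 1 and IgG 3, so the groups overlapped. Within each replicate number the 7B12 array was the highest of the 4. Tmem119 stood 1.07 ± 0.37 (SE) higher in 7B12 slices than in controls, the mean of the IgG and NT group means, which is 2.09-fold with a 95% confidence interval of 0.24 to 1.89 on the log2 scale. In limma this gave an unadjusted p = 0.0167 and an adjusted p = 0.821 (Benjamini-Hochberg over all probe sets).

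Aif1 encodes Iba1, an actin-binding protein that is a common stain for microglia. Its probe set 1368558_s_at read 0.39, -0.048 and 0.77 in 7B12 arrays, 0.46, -0.46 and 0.19 in 11C7 arrays, -0.31, -0.81 and 0.45 in IgG arrays and -0.58, -0.84 and 0.43 in NT arrays. The 7B12 array exceeded both control arrays of its own number each time, though the groups overlapped. Its difference between 7B12 and controls was 0.65 ± 0.38 (SE). The other probe set, 1369489_at, read 0.49, -0.49 and 0.36 in 7B12 arrays, -0.43, -0.31 and -0.088 in 11C7 arrays, 0.43, 0.19 and 0.51 in IgG arrays and 0.21, -0.26 and -0.57 in NT arrays. It did not follow the first: their values correlated at r = 0.086 over the 12 arrays, and its difference between 7B12 and controls was 0.034 ± 0.25 (SE). The size of the Aif1 difference therefore depended on the probe set.

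Csf1r, the growth factor receptor, read 0.079, 0.14 and 0.38 in 7B12 arrays, 0.032, -0.36 and 0.28 in 11C7 arrays, -0.20, -0.44 and 0.51 in IgG arrays and -0.18, -0.57 and 0.46 in NT arrays. Cx3cr1, the fractalkine receptor, read 0.15, 0.019 and 0.73 in 7B12 arrays, 0.15, -0.76 and 0.51 in 11C7 arrays, -0.52, -0.55 and 0.56 in IgG arrays and -0.0045, -0.71 and 0.66 in NT arrays. For both receptors the arrays numbered 3 were high in every group, and the 3 7B12 values lay within the range of the controls or just above it. Csf1r differed by 0.27 ± 0.28 (SE) and Cx3cr1 by 0.39 ± 0.40 (SE) between 7B12 and controls.

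P2ry12 lay on the other side. Its probe set 1368728_at read -0.35, -0.30 and 0.25 in 7B12 arrays, -0.44, -0.034 and 1.10 in 11C7 arrays, 0.11, -0.039 and 1.20 in IgG arrays and 0.26, -0.16 and 0.88 in NT arrays. Its probe set 1380822_at read -0.38, -0.77 and 0.14 in 7B12 arrays, -0.42, -0.039 and 0.86 in 11C7 arrays, 0.14, -0.36 and 1.09 in IgG arrays and 0.17, -0.39 and 0.98 in NT arrays. In both probe sets each 7B12 array lay below the IgG and NT arrays of its own number, and array 7B12 3 lay within the range of the control arrays numbered 1 and 2. P2ry12 stood lower in 7B12 slices than in controls by values of -0.51 ± 0.41 and -0.61 ± 0.43 (SE). The 2 probe sets followed each other closely, with r = 0.962 over the 12 arrays.

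Trem2 ran much like P2ry12. Its probe set 1382513_at read -0.46, -0.26 and 0.065 in 7B12 arrays, -0.88, 0.048 and 0.98 in 11C7 arrays, 0.0030, -0.058 and 1.15 in IgG arrays and 0.25, 0.088 and 1.18 in NT arrays. Its probe set 1392759_at read -0.069, -0.50 and -0.097 in 7B12 arrays, -0.16, 0.0059 and 0.66 in 11C7 arrays, 0.22, 0.12 and 0.98 in IgG arrays and 0.25, -0.11 and 0.98 in NT arrays. Within each number the 7B12 array was below both control arrays in both probe sets, with overlap between groups across numbers. The differences between 7B12 and controls were -0.65 ± 0.44 and -0.63 ± 0.31 (SE), and the probe sets correlated at r = 0.89.

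Gpr34, a receptor for lysophosphatidylserine, read 0.070, -0.74 and -0.40 in 7B12 arrays, 0.069, 0.72 and 0.29 in 11C7 arrays, 0.052, -0.11 and 0.59 in IgG arrays and -0.081, -0.57 and 0.63 in NT arrays. Its 7B12 and 11C7 ranges met only near 0.07, at arrays 7B12 1 and 11C7 1. Gpr34 differed by -0.44 ± 0.31 (SE) between 7B12 and controls.

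**Figure D1:**
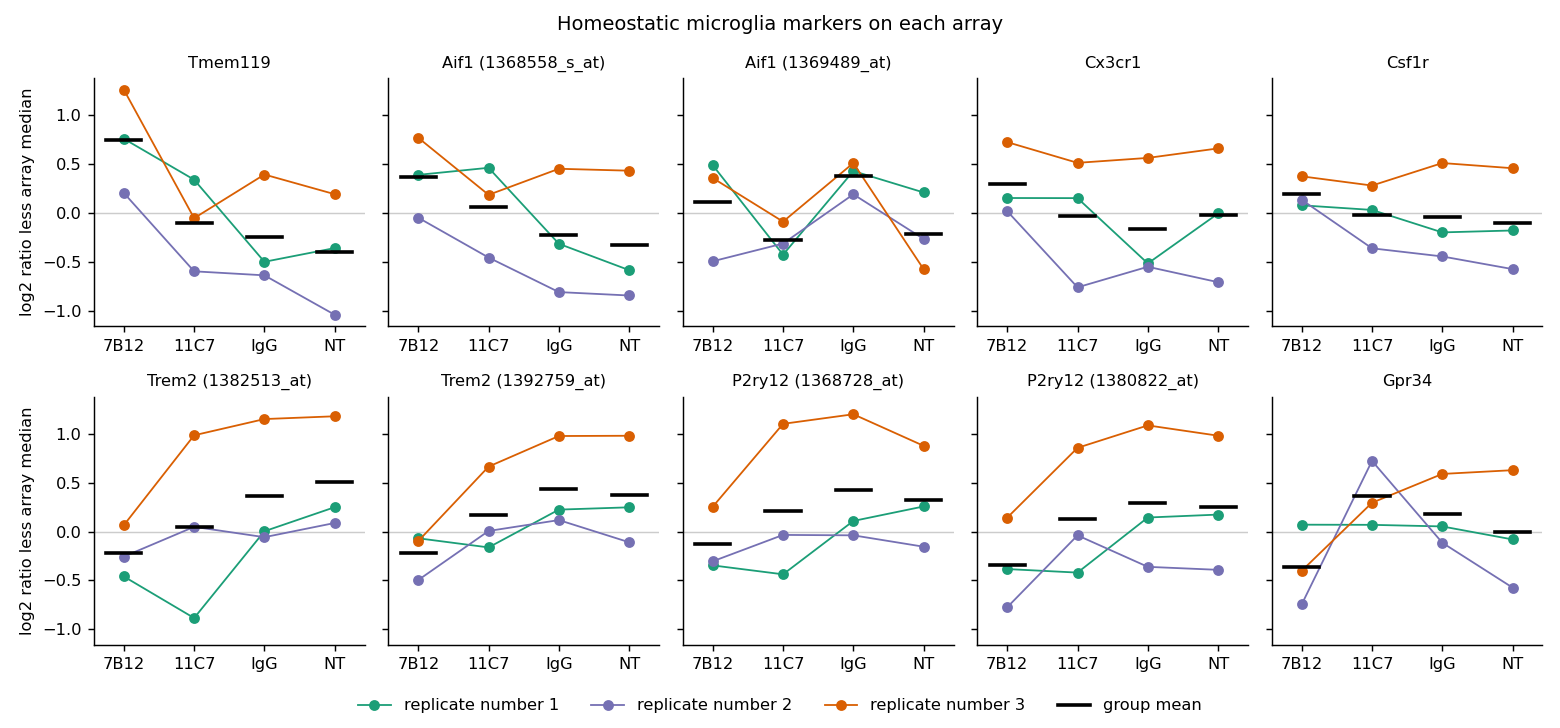
Values of the 10 probe sets of the 7 homeostatic microglia genes on each array, as log2 ratio less the array median, with groups on the horizontal axis. Points are single arrays, coloured lines join arrays of the same replicate number, and black bars are group means. Tmem119 runs up to 1.26 in array 7B12 3, and the P2ry12 and Trem2 values of the arrays numbered 3 reach 0.88 to 1.20 in the IgG and NT groups.

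The question of the study was whether blocking Nogo-A alters gene expression in mature hippocampal tissue. No member passed an adjusted p under 0.05 in limma for 7B12 against controls, and neither did any other probe set (0%). At an unadjusted p under 0.05, 1 of 10 member probe sets was higher, Tmem119, where 3.09% of all probe sets were, and 0 of 10 were lower, where 2.12% were. No member had all 3 7B12 arrays above the 6 control arrays (1.99% of all probe sets) or below them (1.11%). The median difference of the members was -0.20, with 5 of 10 above 0, against 0.0026 over all probe sets. That median ran from -0.28 without NT 2 to 0.024 without 7B12 2, and from -0.33 to -0.12 in the blocked fits without 1 array. With 1 value per gene it was 0.27, with 4 of 7 above 0, so its sign depended on how the probe sets were counted. A p that misses the threshold does not show that the groups were alike, and in bulk tissue fewer cells of a type cannot be told apart from less RNA per cell. Leaving out 7B12 3 took Tmem119 to 0.81, with an unadjusted p = 0.0843 in limma. With single arrays left out, Cx3cr1 ran from 0.18 (without 7B12 3) to 0.57 (without IgG 3), and Csf1r from 0.15 (without NT 2) to 0.41 (without NT 3). Gpr34 ran from -0.66 (without 7B12 1) to -0.25 (without 7B12 2). The P2ry12 probe sets came nearest to 0 at -0.31 (without IgG 3) and -0.39 (without 7B12 2).

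Replicate numbers carried much of the spread of the members. The number accounted for 78% of the variance of Cx3cr1 over the 12 arrays, for 73.7% of that of Csf1r, for 73.2% and 72.2% in P2ry12, and for 62.7% and 52.5% in Trem2, against a median of 35.2% over all probe sets. Gpr34 and the second Aif1 probe set were low, at 17.3% and 17.9%. All 4 arrays numbered 3 lay above the other 8 for Cx3cr1 and for Csf1r, 2 of 10 member probe sets, as they did for 2.28% of all probe sets. Averaged over the 4 arrays numbered 3, the values were 0.62 for Cx3cr1, 0.41 for Csf1r, 0.86 and 0.77 for P2ry12 and 0.84 and 0.63 for Trem2.

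Within a number, the members divided by direction. The difference between the 7B12 array and the mean of the IgG and NT arrays of the same number was 1.19, 1.04 and 0.97 for Tmem119 at numbers 1, 2 and 3. For Aif1 1368558_s_at it was 0.84, 0.78 and 0.33, and for Cx3cr1 it was 0.41, 0.65 and 0.11. These 3 of 10 probe sets were higher at every number, where 17.4% of all probe sets were. The difference was -0.53, -0.21 and -0.78 for P2ry12 1368728_at, and -0.54, -0.40 and -0.89 for P2ry12 1380822_at. For Trem2 it was -0.59, -0.27 and -1.10 in 1382513_at and -0.31, -0.50 and -1.08 in 1392759_at. These 4 of 10 probe sets, of 2 genes, were lower at every number, where 15.8% of all probe sets were. Csf1r had 0.27, 0.64 and -0.11, Gpr34 had 0.085, -0.40 and -1.01, and Aif1 1369489_at had 0.17, -0.46 and 0.39, so these 3 went both ways.

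With the replicate number as a block in limma, the standard errors of most members shrank while the differences stayed as they were. Tmem119 then had an SE of 0.20 and an unadjusted p = 0.00096, with an adjusted p = 0.291 (Benjamini-Hochberg over all probe sets). The unadjusted p for Aif1 1368558_s_at was 0.0137. For P2ry12 it was 0.0278 and 0.0107, and for Trem2 0.0262 and 0.0069. Thus 2 of 10 members were higher at an unadjusted p under 0.05, where 5.16% of all probe sets were, and 4 of 10, of 2 genes, were lower, where 4.29% were. Cx3cr1 (unadjusted p = 0.0605), Csf1r (0.115) and Gpr34 (0.169) missed that level in limma, and no member passed after adjustment. Without array 7B12 2 Csf1r was 0.094 and Cx3cr1 0.23 in the blocked fit. Without array 7B12 3 the unadjusted p in the blocked limma fit was 0.152 and 0.0619 for P2ry12 and 0.15 for Trem2 1382513_at, while it was 0.0357 for Trem2 1392759_at. With all 3 7B12 arrays kept and the 11C7 arrays left out of the blocked fit, 68 probe sets passed an adjusted p under 0.05 (0.219%) and 0 of 10 members did, Tmem119 having an adjusted p = 0.073. Leaving out only 11C7 1 left Tmem119 at an adjusted p = 0.0767 in the blocked limma fit.

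**Figure D2:**
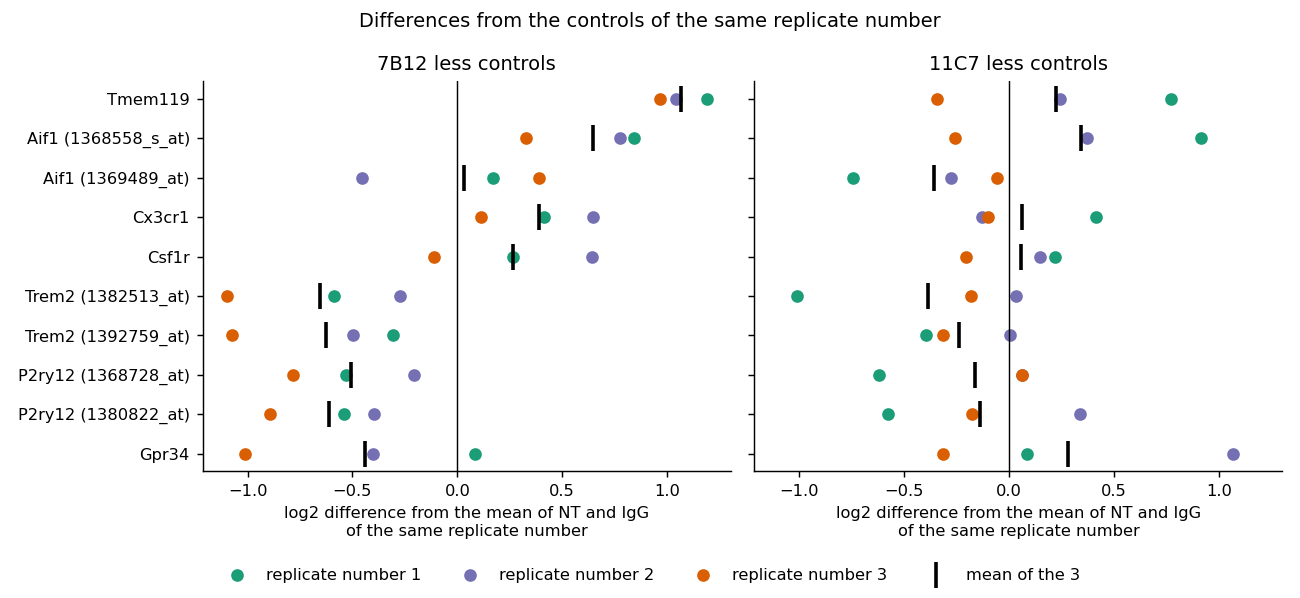
Difference of each 7B12 array, and of each 11C7 array, from the mean of the IgG and NT arrays with the same replicate number, for the 10 member probe sets on the log2 scale. Points are the numbers 1, 2 and 3, and bars are their means. Tmem119 lies between 0.97 and 1.19 at all 3 numbers for 7B12, and between -0.35 and 0.77 for 11C7.

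In 11C7 slices no member reached an unadjusted p under 0.05 against controls in limma, 0 of 10 members, where 3.22% of all probe sets did, and the differences ran between -0.39 and 0.34. Tmem119 differed by 0.22 ± 0.37 (SE), Aif1 1368558_s_at by 0.34 ± 0.38, Gpr34 by 0.28 ± 0.31 and Trem2 by -0.39 ± 0.44 and -0.24 ± 0.31. Aif1 1369489_at differed by -0.36 ± 0.25 (SE), with an unadjusted p = 0.189 in limma, and against controls of the same number it had -0.75, -0.28 and -0.057. The 95% confidence intervals were wide, at -0.60 to 1.05 for Tmem119 and -1.37 to 0.60 for Trem2 1382513_at. The 11C7 arrays differed among themselves: against controls of the same number, Tmem119 had 0.77, 0.24 and -0.35, and Trem2 1382513_at had -1.01, 0.033 and -0.18. Without array 11C7 1 the difference was 0.0003 ± 0.43 (SE) for Tmem119, 0.081 ± 0.43 for Trem2 1382513_at, and 0.16 ± 0.45 and 0.14 ± 0.49 for P2ry12, where it had been -0.16 and -0.14 with that array. It was then 0.14 ± 0.44 for Aif1 1368558_s_at, -0.28 ± 0.31 for Aif1 1369489_at, 0.43 ± 0.36 for Gpr34 and -0.071 ± 0.36 for Trem2 1392759_at (SE). In Csf1r it was 0.031 ± 0.35 and in Cx3cr1 -0.031 ± 0.49, where it had been 0.055 and 0.061 with that array.

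**Figure D3:**
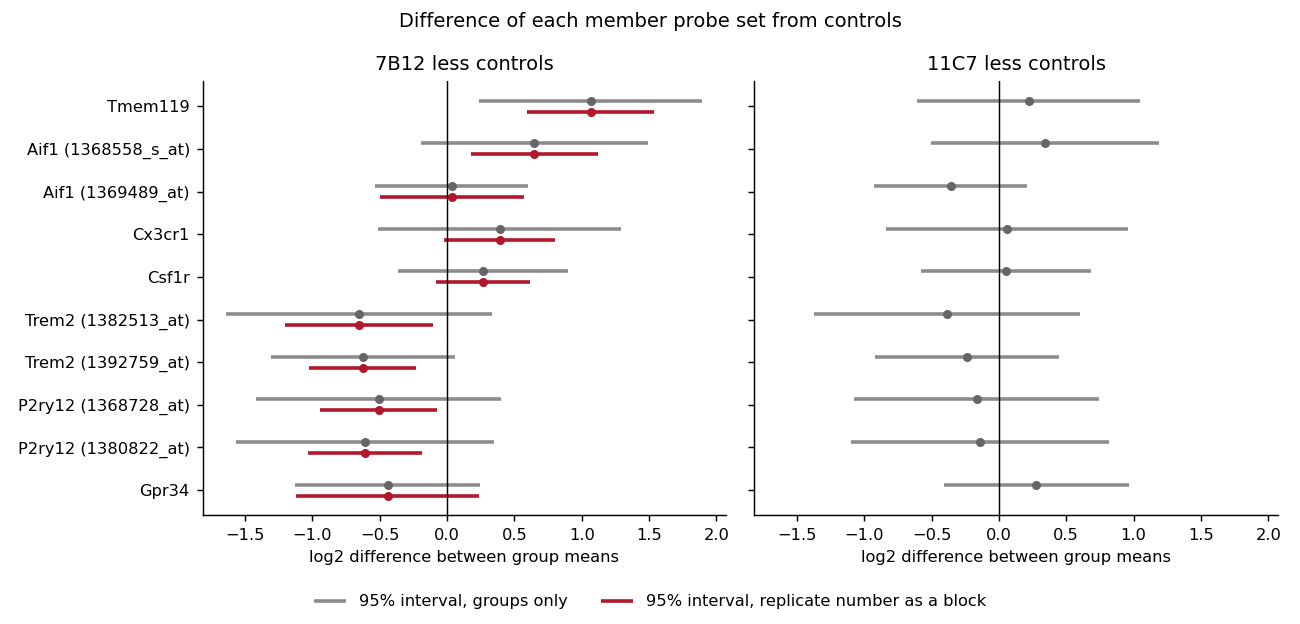
Differences of 7B12 and of 11C7 from controls for the 10 member probe sets, on the log2 scale, with 95% confidence intervals from limma. The wider interval is from the fit on the groups alone, and the second interval for 7B12 is from the fit with the replicate number as a block. Tmem119 under 7B12 stands at 1.07 with an interval of 0.24 to 1.89, and the intervals of the other members reach 0 in the fit on the groups alone.

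The control antibody was also set against no treatment. IgG and NT slices gave 0 of 10 members at an unadjusted p under 0.05 in limma, where 2.32% of all probe sets reached it. The largest difference was 0.59 ± 0.29 (SE) in Aif1 1369489_at, with an unadjusted p = 0.0741 in limma, while the other Aif1 probe set differed by 0.11 ± 0.44. Tmem119 differed by 0.15 ± 0.43, Cx3cr1 by -0.15 ± 0.46 and the 2 Trem2 probe sets by -0.14 ± 0.51 and 0.067 ± 0.35. The median of the members was 0.082, with 8 of 10 above 0, against -0.0065 over all probe sets, and it ran from -0.23 without IgG 3 to 0.39 without NT 3.

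Between the 2 anti-Nogo-A antibodies, 7B12 less 11C7, 0 of 10 members reached an unadjusted p under 0.05 in limma, where 3.83% of all probe sets did. Tmem119 differed by 0.84 ± 0.43 (SE; unadjusted p = 0.0768) and Gpr34 by -0.72 ± 0.35 (unadjusted p = 0.0693) in limma. With the replicate block 1 of 10 members reached it, where 7.04% of all probe sets did: Tmem119 with an unadjusted p = 0.00772 and an adjusted p = 0.698 in limma. The comparison turned on array 11C7 1, without which 6 of 10 members reached an unadjusted p under 0.05 in the blocked fit, where 10.1% of all probe sets did. That array was singled out from values of these same members, so the count without it is no separate evidence of a difference. Without 11C7 1, Tmem119 was 1.10 ± 0.21 (SE) and P2ry12 1380822_at was -0.70 ± 0.18 in the blocked fit. Tmem119 had an adjusted p = 0.211 there and none of the members passed after adjustment in limma.

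The order of the 4 group means differed by gene. Tmem119, Aif1 1368558_s_at and Csf1r had 7B12 highest, then 11C7, IgG and NT, and Cx3cr1 also had 7B12 highest. Both P2ry12 and both Trem2 probe sets and Gpr34 had 7B12 lowest, and Aif1 1369489_at had IgG highest. Without array 11C7 1 the order was another in 5 of the 10 probe sets, those of P2ry12 and Aif1 1369489_at, Tmem119 and Trem2 1382513_at, and 11C7 then had the highest mean for P2ry12 and Trem2 1382513_at. Whether 7B12 lay highest, lowest or in between did not depend on that array in any of the 10. Neighbouring means differed by less than the spread within groups in every member, except that the 7B12 mean of Tmem119 exceeded its 11C7 mean by 0.84 where the SD within groups was 0.55. With the replicate numbers taken out of that spread, 7 of the 10 probe sets had a gap between neighbours above it. These were the probe sets of P2ry12, Csf1r, Cx3cr1, Tmem119, Aif1 1368558_s_at and Trem2 1392759_at. The share of all probe sets with such a gap was not computed, so this count does not set the members apart from other genes. The F test over the 4 groups called 0 of 10 members and 0% of all probe sets. An analysis of variance with the study's limits, an unadjusted p of at most 0.05 and 1.2-fold, called 0 of 10 members, where 2.99% of all probe sets passed, and the smallest member p in that analysis across all probe sets was 0.122, of Tmem119.

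Within single arrays, some pairs of members set against each other separated the arrays further. A difference between 2 genes on 1 array removes what moves both, and it is a contrast of ratios and no comparison of amounts. The 4 pairs below, of 21 possible, were picked after their values were seen, so they are described without a test. Not all of the 21 separated the groups. P2ry12 minus Trem2, for example, was -0.10, -0.16 and 0.21 in 7B12 arrays and 0.012, -0.23 and 0.079 in IgG arrays. How often pairs of other genes separate the arrays was not examined. Tmem119 minus Trem2 was 1.02, 0.58 and 1.28 in 7B12 arrays, 0.86, -0.62 and -0.88 in 11C7 arrays, -0.61, -0.67 and -0.67 in IgG arrays and -0.61, -1.03 and -0.89 in NT arrays. Cx3cr1 minus P2ry12 was 0.52, 0.56 and 0.53 in 7B12 arrays, 0.58, -0.72 and -0.47 in 11C7 arrays, -0.64, -0.35 and -0.58 in IgG arrays and -0.22, -0.43 and -0.27 in NT arrays. In both pairs the 3 7B12 arrays and 11C7 1 lay above 0 and the other 8 arrays below it. The same held for Tmem119 minus P2ry12, which averaged 0.98 ± 0.20 in 7B12, -0.27 ± 0.93 in 11C7, -0.60 ± 0.16 in IgG and -0.69 ± 0.10 in NT arrays (SD, n = 3 each). It held for Csf1r minus Trem2 as well, which averaged 0.42 ± 0.087 in 7B12, -0.13 ± 0.59 in 11C7, -0.45 ± 0.12 in IgG and -0.54 ± 0.10 in NT arrays (SD, n = 3 each). The SD of Cx3cr1 minus P2ry12 in the 7B12 arrays was 0.021, where that of Cx3cr1 alone was 0.38.

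**Figure D4:**
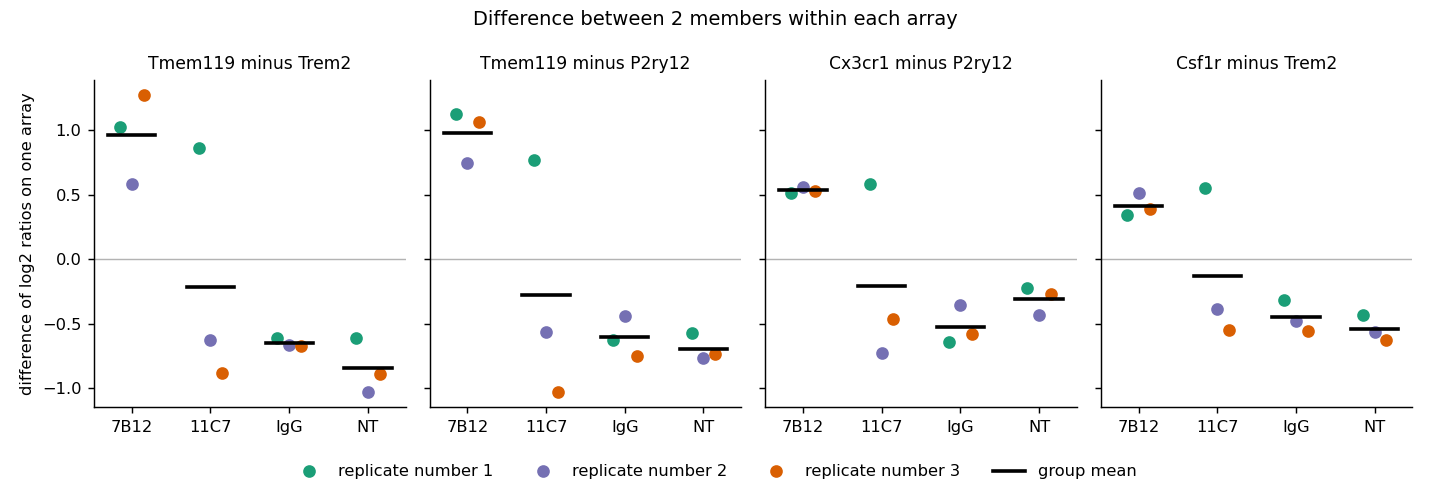
Differences between 2 member genes on the same array, on the log2 scale, for 4 pairs chosen after their values were seen. Each point is an array, coloured by replicate number, and bars are group means. The 3 7B12 arrays and array 11C7 1 lie above 0 in all 4 pairs, with Tmem119 minus Trem2 at 0.58 to 1.28 in 7B12 arrays, and the other 8 arrays lie below 0.

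Over the 12 arrays, which share replicate numbers, the members fell into sets that tracked each other. Csf1r and Cx3cr1 correlated at r = 0.95, Tmem119 and Aif1 1368558_s_at at r = 0.922, and the P2ry12 with the Trem2 probe sets at r = 0.906 to 0.954. After the mean of each number was taken off, Tmem119 ran against Trem2 at r = -0.785 and -0.76, and against P2ry12 at r = -0.796 and -0.819. These values describe 12 arrays and carry no test. Outside the members, the genes whose values were most like the mean of the member genes were Ifngr1, a chain of the interferon gamma receptor (r = 0.969), Pld4 (r = 0.961), the transcription factor Bhlhe41 (r = 0.958) and C1qc, a chain of complement C1q (r = 0.957). The next 6 were Ifi30, LOC100909405, RT1-DMb, Mrpl54, Ocln and Ctsh, down to r = 0.954.

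Csf1r and Cx3cr1, which tracked each other, and Gpr34 and Trem2, which stood lower in 7B12 slices, had a promoter window in the RefSeq table (build GRCr8), and their sequences are set out to show which factor motifs they share. Each window runs from 250 bases before the annotated gene start to 50 after it, 5′ to 3′ on the gene's strand, with motif matches in capitals.
Csf1r (chr18:56834129-56834428, plus strand): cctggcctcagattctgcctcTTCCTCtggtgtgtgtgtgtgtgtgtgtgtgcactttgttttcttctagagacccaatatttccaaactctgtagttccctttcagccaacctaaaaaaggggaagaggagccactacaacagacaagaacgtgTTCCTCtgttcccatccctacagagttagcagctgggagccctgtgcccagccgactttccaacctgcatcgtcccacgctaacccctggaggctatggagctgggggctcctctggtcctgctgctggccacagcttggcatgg
Cx3cr1 (chr8:128677017-128677316, minus strand): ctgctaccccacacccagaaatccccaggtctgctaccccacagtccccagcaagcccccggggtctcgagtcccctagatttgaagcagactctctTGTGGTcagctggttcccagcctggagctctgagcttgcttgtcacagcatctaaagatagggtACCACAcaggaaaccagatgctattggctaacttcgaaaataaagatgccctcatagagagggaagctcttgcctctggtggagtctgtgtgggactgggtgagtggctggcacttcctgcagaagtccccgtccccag
Gpr34 (chrX:11785787-11786086, minus strand): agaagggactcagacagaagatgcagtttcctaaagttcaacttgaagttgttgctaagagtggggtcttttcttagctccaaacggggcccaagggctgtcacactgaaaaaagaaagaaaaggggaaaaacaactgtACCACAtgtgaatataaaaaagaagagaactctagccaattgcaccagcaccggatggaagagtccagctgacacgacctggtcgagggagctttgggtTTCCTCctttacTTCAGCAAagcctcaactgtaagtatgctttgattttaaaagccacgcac
Trem2 (chr9:20151730-20152029, minus strand): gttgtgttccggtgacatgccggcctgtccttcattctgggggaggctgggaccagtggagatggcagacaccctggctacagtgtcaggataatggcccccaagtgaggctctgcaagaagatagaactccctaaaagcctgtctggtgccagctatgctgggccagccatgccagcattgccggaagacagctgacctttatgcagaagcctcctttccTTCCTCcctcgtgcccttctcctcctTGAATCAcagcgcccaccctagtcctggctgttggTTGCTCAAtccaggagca

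Searched on both strands, GAGGAA, the core of sites for PU.1, the factor that myeloid cells depend on, was in the windows of Csf1r, Gpr34 and Trem2, 3 of the 5 members that have a window, P2ry13 included. It was in 27.6% of the 33469 windows in the table. The RUNX motif TGTGGT was in Cx3cr1 and Gpr34 (17.3% of windows), and the C/EBP motif TTGCNNAA was in Gpr34, P2ry13 and Trem2 (10.6%). The AP-1 motif TGANTCA was in Trem2 alone of the 5 (7.33%). There a single stretch matched on both strands, since the motif, with its free middle base N, reads the same on both. No 2 matches of different motifs overlapped in these windows, and a match is a run of letters, not a site of binding.

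The genes that act with the members gave no call either. One value per gene was used here, the mean of its probe sets with 1 symbol, which gave 4 of 7 members above 0 in 7B12 slices and a median of 0.27, against 0.012 over 14217 genes. Of 12 ligands and partners, all 12 stood above 0 in 7B12 slices against controls, where 52.1% of all genes did, with a median of 0.25, and 0 reached an unadjusted p under 0.05 in limma, where 3.91% of genes were higher and 2.14% lower. With the replicate block 6.84% of genes were higher and 4.99% lower at that level, and 1 of the 12 was higher, Plcg2, with an unadjusted p = 0.0212 in limma. Csf1, a ligand of Csf1r, differed by 0.31 ± 0.16 (SE), Plcg2, an enzyme that acts downstream of Trem2, by 0.60 ± 0.33 and Entpd1, which breaks down the nucleotides that P2ry12 senses, by 0.66 ± 0.37. Tyrobp, the adaptor of Trem2, differed by 0.16 ± 0.49, Cx3cl1 by 0.20 ± 0.49 and Il34 by 0.038 ± 0.29. Inpp5d differed by 0.031 ± 0.30 and Adam10 by 0.0001 ± 0.26, so the count above 0 includes genes with hardly any difference.

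Other homeostatic genes lay on both sides of 0. Of 15 measured, 5 stood above 0, with a median of -0.20, and at an unadjusted p under 0.05 in limma 2 were higher and 2 lower, or 2 and 4 with the block. Among all genes 3.91% were higher and 2.14% lower at that level, or 6.84% and 4.99% with the block. Ltc4s, an enzyme of leukotriene synthesis, differed by -2.18 ± 0.51 (SE), Sall1 by -0.71 ± 0.27, P2ry6, a nucleotide receptor tied to phagocytosis, by 1.14 ± 0.39 and Cd33, an inhibitory lectin, by 0.97 ± 0.39. Of 9 transcription factors, 6 stood above 0, with a median of 0.013, and 1 was higher at an unadjusted p under 0.05, Maf at 1.12 ± 0.34. Cebpb, a C/EBP factor, differed by 0.79 ± 0.36 and Runx1, a RUNX factor, by 0.36 ± 0.22 (SE), and with the block 3 of the 9 were higher. None of these genes passed an adjusted p under 0.05 in limma.

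Lists of markers of other myeloid states and of leukocytes were set against controls in the same way, and none of their genes passed an adjusted p under 0.05 in limma. The counts below stand beside 3.91% of all genes higher and 2.14% lower at an unadjusted p under 0.05. With the block these shares were 6.84% and 4.99%. Of 16 pan-myeloid genes, 14 stood above 0 with a median of 0.57 and 6 were higher at an unadjusted p under 0.05 in limma (10 with the block), among them Lyz2 (1.399 ± 0.30, SE), Cd14 (2.38 ± 0.61) and Fcer1g (1.13 ± 0.31). The complement genes C1qa, C1qb and C1qc, which microglia express, differed by -0.12, 0.0071 and 0.019. Of 10 genes of border-associated macrophages, 8 stood above 0 with a median of 0.85 and 5 were higher, among them Folr2 (2.23 ± 0.42), Ms4a7 (2.84 ± 0.64) and Stab1 (1.24 ± 0.30). The genes of that list that did not reach this level were F13a1 (-0.57 ± 0.62), Cd163 (-0.053 ± 0.60), Pf4 (0.14 ± 0.18), Lyve1 (0.24 ± 0.35) and Cd36 (0.45 ± 0.70). The mean of that list on single arrays ran between 0.14 and 0.60 in 7B12, -0.62 and 0.16 in 11C7, -0.69 and -0.31 in IgG and -0.94 and -0.72 in NT arrays. Of 9 blood leukocyte genes, 6 stood above 0 with a median of 0.78 and 4 were higher, among them Cd3d of T cells (1.87 ± 0.44), Plac8 (2.11 ± 0.54) and Cd79b of B cells (2.75 ± 0.92). Ms4a1, also of B cells, differed by -1.22 ± 1.06, Nkg7 by -0.42 ± 0.71 and Ccr2 by -0.14 ± 0.73. Cd3d also differed between the control groups, by 2.12 ± 0.51 for IgG less NT. With the block the counts of these 2 lists were the same. The mean of the leukocyte genes ran between -1.24 and 0.051 in 7B12, -1.53 and -1.17 in 11C7, -1.21 and -0.79 in IgG and -2.11 and -1.24 in NT arrays. Of 15 reactive microglia genes, 11 stood above 0 with a median of 0.15, 3 were higher and 1 lower, Igf1 at -1.58 ± 0.32, with Cst7 at 2.86 ± 0.54 and Itgax at 2.39 ± 0.57, and with the block 5 were higher and 3 lower. Their part in the member values, Tmem119 included, was not tested, and since ratios carry no level it is not known which of these markers are near 0.

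**Figure D5:**
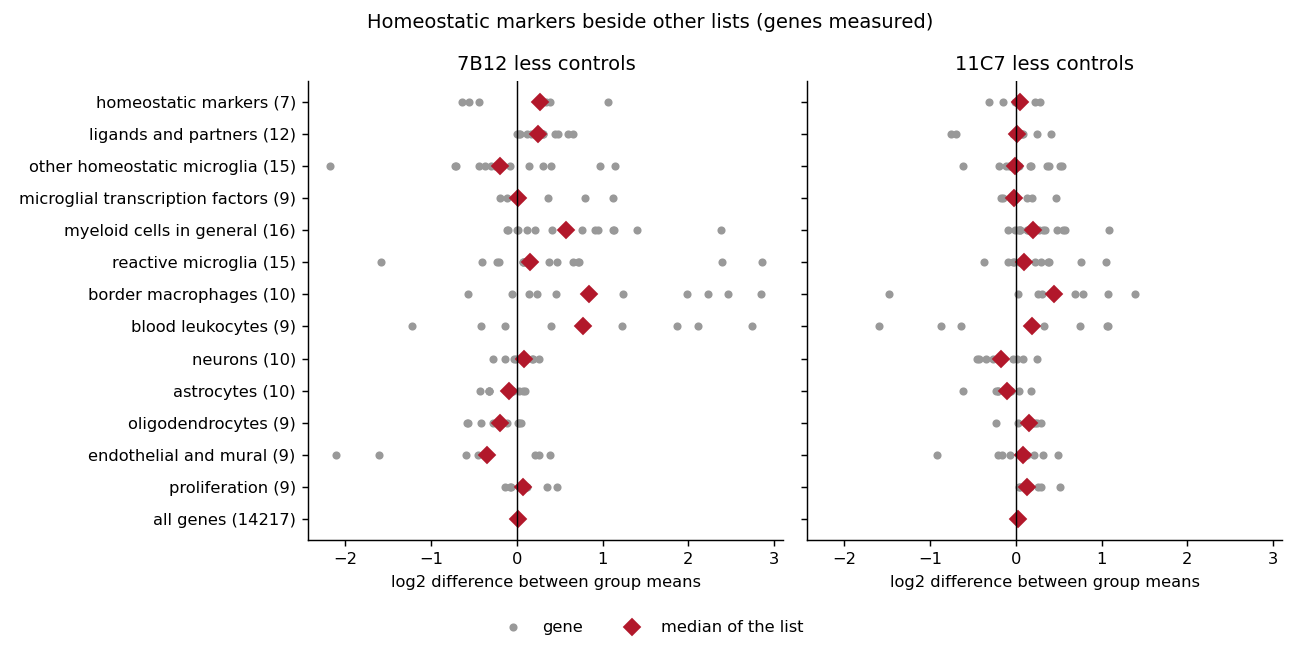
Differences of 7B12 slices and of 11C7 slices from controls on the log2 scale, 1 point per gene, for the homeostatic members and the other lists of genes, with the median of each list as a diamond (for all genes, the median alone). For 7B12 the members have a median of 0.27, the pan-myeloid genes (myeloid cells in general) 0.57, the border macrophage genes 0.85 and all 14217 genes 0.012, and for 11C7 these medians are 0.055, 0.20, 0.45 and 0.031.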

How the data were processed

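Affymetrix rat arrays were hybridised with biotin-labelled cRNA from pooled slice cultures. The authors used GCOS 1.4 and MAS5, whose version is not given in the sources used here, per the submitters' processing notes, and GeneSpring 7.2, per the design text. What the authors deposited is a ratio per probe set and array, made per the design text by dividing by the median of the controls. Yet for 76.4% of probe sets, all 10 of the members included, the median over the 12 arrays was 1 within 0.0015. A divisor that is constant per probe set cancels in log2 differences between groups. Member ratios ran from 0.458 to 2.29, above the 0.01 that is the lowest deposited value. Brightness is unknown, so no filter on dim probe sets was used in the main fit.

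Of 31099 probe sets, 57 spike-in controls were left out. Of the rest, 20826 had 1 symbol, 436 several and 9780 none here. Groups and replicate numbers came from the sample titles. Log2 ratios less the array median were fitted in limma 3.58.1 (R 4.3.3; lmFit, contrasts, eBayes without a trend) with 1 mean per group over all 12 arrays. Tests were two-sided and adjusted by Benjamini-Hochberg over all 31042 probe sets (or 14217 genes), and an adjusted p under 0.05 was the threshold. The steps were tested on simulated data.

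The replicate numbers pair the arrays where every same-number correlation of the deviations from the group means is over 0.1. The lowest was 0.12 for 7B12 less controls (9 pairs), 0.127 for IgG less NT and 0.12 for 7B12 less 11C7 (3 pairs each). A fit with the number as a block is given where it moves a count or a member's p across 0.05. Alternatives were other scalings, spread models, array weights, either control alone, 1 value per gene and each array left out. The 3 genes with the smallest p in 7B12 less controls are described in most lists. These are the lists of ligands and partners, other homeostatic genes, transcription factors, myeloid states and leukocytes. In the lists of other cells and of proliferation, the genes at an unadjusted p under 0.05 in limma, with or without the block, are named. Others are named for their role or after their values were seen. The 10 genes most like the members were ranked by Pearson correlation. The members and lists were chosen with earlier results of these data known.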

Additional observations from a re-analysis of the deposited data

How the results depend on the processing

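With 3 arrays per group, differences of the size seen in most members lie within the confidence intervals, and brightness over background is unknown. Across the alternatives, 1267 values of single members kept their direction and their side of the threshold and 73 turned sign, and no member passed an adjusted p under 0.05 in limma under any alternative run. The count of members at an unadjusted p under 0.05, chosen after the data were seen as a measure to follow across alternatives, was 1 for 7B12 less controls, 6 with the replicate block, 2 with array weights, and 6 with the block and the 11C7 arrays left out, where 68 probe sets passed after adjustment. For IgG less NT it was 1 with array weights, and 1 probe set was called among those with a 12-array median of 1. For 7B12 less 11C7 it was 1 with the block. With 1 value per gene and the block, 1 of 7 members was higher for IgG less NT, where 243 of 14217 genes were. This was Aif1, with an unadjusted p = 0.025 in limma (0.243 without the block). For 7B12 less 11C7, 2 of 7 were higher, Tmem119 (unadjusted p = 0.00645 in limma) and Aif1 (0.0244), where 603 of 14217 genes were. The share of all probe sets at that level rose with the block too. That share went from 3.09% higher and 2.12% lower to 5.16% and 4.29% for 7B12 less controls. For 7B12 less 11C7 it went from 3.83% to 7.04%. The share was not taken with array weights or with the 11C7 arrays left out, so the member counts of those fits have no background to be read against. The member median of 7B12 less controls was 0.27 with 1 value per gene. The methods' analysis of variance over the 4 groups called 928 probe sets. The replicate block changed no adjusted call of a member. For 11C7 less controls the lowest same-number correlation, of IgG 3 with 11C7 3, was 0.086, under the 0.1 set for pairing. The highest correlation of IgG 3 with an 11C7 array of another number was -0.041. The block left 0 members at an unadjusted p under 0.05 for 11C7 less controls. Aif1 1369489_at, 7B12 less controls, was -0.0025 on the deposited scale, -0.027 after quantile normalization, -0.0033 with array weights and -0.26 against IgG alone. For 11C7 less controls, array weights gave -0.071 for Csf1r and -0.13 for Cx3cr1, NT alone gave -0.014 for Cx3cr1, and 1 value per gene gave -0.0086 for Aif1. For IgG less NT, 1 value per gene gave -0.037 for Trem2. The cause of these moves was not tested.

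With each array left out in turn, with and without the block, calls ran from 0 to 99 for 7B12 less controls, 0 to 1 for 11C7 less controls, 0 to 1 for IgG less NT, 0 to 27 for 7B12 less 11C7 and 0 to 35 for the F test, each maximum above 1 coming from the blocked fit without 11C7 1. Members at an unadjusted p under 0.05 ran from 0 (without 7B12 3) to 7 (block, without 11C7 1), from 0 to 2 (block, without 11C7 3), from 0 to 1, and from 0 to 6 (block, without 11C7 1) in the same 4 comparisons. In the last of these fits, for 7B12 less 11C7, 10.1% of all probe sets reached that level. That share was not taken for the other counts with an array left out, so they have no background to be read against. Aif1 1369489_at, 7B12 less controls, ran from -0.15 to 0.34. For 11C7 less controls Csf1r ran from -0.094 to 0.23, Cx3cr1 from -0.21 to 0.43, Gpr34 from -0.11 to 0.48, P2ry12 from -0.61 to 0.16 and from -0.50 to 0.14, Tmem119 from -0.031 to 0.49 and Trem2 1382513_at from -0.85 to 0.081. For IgG less NT Aif1 1368558_s_at ran from -0.23 to 0.49, Csf1r from -0.22 to 0.33, Cx3cr1 from -0.52 to 0.19, Gpr34 from -0.098 to 0.50, P2ry12 from -0.29 to 0.37 and from -0.36 to 0.40, Tmem119 from -0.17 to 0.45, and Trem2 from -0.53 to 0.20 and from -0.20 to 0.37. For 7B12 less 11C7 Cx3cr1 ran from -0.034 to 0.60, P2ry12 1368728_at from -0.67 to 0.10 and Trem2 1382513_at from -0.73 to 0.20.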

Other observations

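Markers of cells that are neither microglia nor other leukocytes, and of proliferation, were set against controls in 7B12 slices as well. The medians were 0.085 for 10 neuron genes, -0.091 for 10 astrocyte genes, -0.20 for 9 oligodendrocyte genes, -0.35 for 9 endothelial and mural genes and 0.075 for 9 proliferation genes. At an unadjusted p under 0.05 in limma, 1 of these genes differed, Acta2 of smooth muscle and pericytes at 0.39 ± 0.14 (SE). With the replicate block 7 of the 47 did, Acta2 and Mcm5 higher and Aldoc, Slc4a4, Ermn, Mobp and Kdr lower, the last at -1.61 ± 0.76 (SE, groups only). Over all genes 3.91% were higher and 2.14% lower at that level, and 6.84% and 4.99% with the block. The mean of the neuron genes ran between -1.04 and 1.05 in 7B12 arrays, -1.07 and 0.41 in 11C7 arrays, -1.03 and 1.00 in IgG arrays and -1.62 and 1.24 in NT arrays, with the arrays numbered 1 lowest in every group.

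After the mean of each replicate number was taken off, the genes most like the mean of the members over the 12 arrays were Pdzph1 (r = 0.894), Pierce1 (r = 0.89) and As3mt (r = 0.885). None of these 3 was among the 10 genes nearest to the members before the number means were taken off. The values share 12 arrays and 3 replicate numbers and carry no test.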
